A study of Homo sapiens with 10 samples.

Results

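The oligosaccharyltransferase, the SEC61 translocon and the translocon-associated protein complex (TRAP) are membrane machines of the endoplasmic reticulum (ER) that sit at ER-bound ribosomes. The genes described here are 10 of their subunits: RPN1, RPN2, DDOST, STT3A, STT3B and DAD1 of the oligosaccharyltransferase, SEC61A1 and SEC61B of the translocon, and SSR1 and SSR2 of TRAP. They were chosen by gene symbol among the 10631 genes with a listed edit in any library, and edits were taken from every library. Ribo-STAMP joins APOBEC1, a cytidine deaminase, to RPS2 of the small ribosomal subunit, and C-to-U edits then build up on mRNA that ribosomes occupy. Long reads place those edits on whole transcripts.

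Nascent secretory and membrane proteins enter the ER through the SEC61 channel while they are being translated. The oligosaccharyltransferase transfers a preassembled glycan to asparagines of the entering chain. STT3A and STT3B are its alternative catalytic subunits: the STT3A form sits at the translocon and acts on the chain as it enters, and the STT3B form can act after translation has ended.

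The cells were established lines. HEK293T, an embryonic kidney line, carried a doxycycline-inducible vector for either Ribo-STAMP (n = 3) or APOBEC1 alone (n = 3), the background of the editor, and was induced with 1 ug/mL doxycycline for 72 h. MDA-MB-231, derived from a triple-negative breast cancer, carried the Ribo-STAMP vector in all of its libraries, was induced with 1 ug/mL doxycycline for 48 h, and either received 100 uM CoCl2 for 48 h (n = 2), a cobalt salt that mimics low oxygen, or was left untreated (n = 2). All libraries were made from polyadenylated RNA, with different long-read preparation kits for each line, and the lines were not compared by any test. The replicates are numbered, but no label says that they came from separate cultures. The p-values therefore measure the spread between these libraries, which may be technical. In bulk RNA, fewer cells expressing a gene and less RNA per cell cannot be told apart.

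Each file lists coding-sequence positions with at least 1 edited read, together with the edited reads and the reads covering the position. Reads on listed isoforms numbered 157544 to 203094 in Ribo-STAMP HEK293T and 81591.5 to 110526 in APOBEC1-only HEK293T, and 1.12e+06 to 1.20e+06 in MDA-MB-231. Between 6 and 8 of the 10 genes were listed in each Ribo-STAMP HEK293T library and 4 or 5 in each APOBEC1-only library. All 10 were listed in every MDA-MB-231 library. The 10 genes held 0.567 to 1.05% of all edited reads in Ribo-STAMP HEK293T, 0.400 to 0.808% in APOBEC1-only, 0.458 and 0.539% in CoCl2-treated MDA-MB-231, and 0.571 and 0.686% in untreated MDA-MB-231. All 7 MDA-MB-231 markers (VIM, CD44, ANXA1, CAV1, S100A6, LGALS1 and ITGB1) were listed in every MDA-MB-231 library, against 1 to 3 of the 7 in each HEK293T library. The HEK293T markers were a weaker check: 3 of 5 were listed in each Ribo-STAMP HEK293T library, 0 to 2 in APOBEC1-only libraries and 1 or 2 in MDA-MB-231, and NEFL was listed in no HEK293T library.

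To show what an edit is in these genes, the position with the most edited reads over the MDA-MB-231 libraries was taken for each gene. In all 10 genes the base before that C was an A. The lines below give 29 bases of the messenger strand (GRCh38, GENCODE 29 transcripts, written as DNA) for the 6 genes that the comparisons rest on most, with the edited C and the A before it in capitals.
RPN2: ggatcatgtggggACtgagccatccatta
DDOST: gcctacccctactACgccagcgccttctc
STT3A: gtgaccagcatgtACttttcagctgtaat
DAD1: atcaacccacagaACaaagcggatttcca
SEC61A1: taccgtggccagtACaacacctatcccat
SSR2: tggcttccaaatcACtgctgaacagatac

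The RPN2 window is chr20:37204868-37204896 on the plus strand, that of STT3A is chr11:125611490-125611518 on the plus strand, and that of SEC61A1 is chr3:128066990-128067018 on the plus strand. Those of DDOST, DAD1 and SSR2 are on the minus strand, at chr1:20652449-20652477, chr14:22575188-22575216 and chr1:156020069-156020097. All 6 lie in coding exons of the isoform that carried the gene's edits. For RPN2 and for DAD1, 1 other position had as many edited reads. Each site was edited in few reads. The STT3A site had 5 edited of 371 reads in CoCl2 replicate 2 (1.35%, 95% exact Clopper-Pearson interval 0.439 to 3.12), against 9 of 1002 reads in untreated replicate 1 (0.898%, 0.412 to 1.70) and 4 of 561 in untreated replicate 2 (0.713%, 0.195 to 1.82). The SEC61A1 site had 3 of 289 and 5 of 250 reads in the CoCl2 libraries, against 5 of 928 reads in untreated replicate 1. The highest rate listed at these 6 sites was 2.06%, from 6 of 291 reads at the DAD1 site in CoCl2 replicate 2, and intervals of this kind cover counting error only. Of all MDA-MB-231 positions, 0 were listed in all 4 libraries, so a site edited in every library could not be among those chosen. Since single listed sites were this sparse, edited reads were summed over each gene.

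In HEK293T, edited reads of the RPN2, STT3A, RPN1 and SEC61A1 genes were far above the APOBEC1-only background. RPN2, a non-catalytic oligosaccharyltransferase subunit also called ribophorin II, had 189, 255 and 412 edited reads in the Ribo-STAMP libraries, against 8, 9 and 9 in the APOBEC1-only libraries. STT3A, the catalytic subunit of the translocon-bound form, had 47, 56 and 86 edited reads with Ribo-STAMP, against 3, 4 and 3 with APOBEC1 alone. RPN1, ribophorin I, which takes part in handing some membrane proteins to the enzyme, had 26, 43 and 52 edited reads with Ribo-STAMP, against 1, 3 and 7 with APOBEC1 alone. The Ribo-STAMP and APOBEC1-only values did not overlap for any of these genes. How many of all tested genes separated in this way was not counted, here and for the HEK293T values below. SEC61A1, which forms the channel itself, had 63, 40 and 57 edited reads with Ribo-STAMP, against 0, 2 and 2 with APOBEC1 alone, again without overlap.

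After division by relative depth, the RPN2 mean was 276 ± 115 in Ribo-STAMP libraries and 9.16 ± 1.76 in APOBEC1-only libraries (SD, n = 3 each). On the log2(scaled edited reads + 1) scale, which understates the change of genes with few reads, the difference was 4.69 ± 0.49 (SE; limma, adjusted p = 1.29e-11). The difference was 4.55 ± 0.63 for SEC61A1 (limma, adjusted p = 7.24e-09), 3.73 ± 0.58 for STT3A (limma, adjusted p = 9.38e-08) and 3.18 ± 0.63 for RPN1 (limma, adjusted p = 7.41e-06). The test needed at least 10 edited reads in 3 libraries, and all 4 genes met this through the Ribo-STAMP libraries alone, so a higher value there was built into the choice. Of the 654 genes tested, 99.7% were called higher and the median difference was 3.76, so the calls do not set these 4 apart. With values scaled to level the bulk of all listed genes (TMM), the median of the tested genes was lowered to 1.91 but not levelled. RPN2 (2.24) and SEC61A1 (2.70) were still called, as was STT3A at 1.43, below that median. RPN1 at 0.98 was not called (limma, adjusted p = 0.209). These calls compare each gene with no change, not with other genes.

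The other 6 genes had too few edited reads in HEK293T to be tested. STT3B, the catalytic subunit of the form that can act after translation, had 29, 7 and 2 edited reads with Ribo-STAMP, against 0, 1 and 0 with APOBEC1 alone, a wide spread among the Ribo-STAMP libraries. SSR1, the TRAP alpha subunit, had 15, 7 and 7, against 2, 0 and 3. DDOST, a non-catalytic oligosaccharyltransferase subunit, had 4, 0 and 1 edited reads with Ribo-STAMP and none with APOBEC1 alone. SSR2, the TRAP beta subunit, had 5 in Ribo-STAMP replicate 3 and none elsewhere. DAD1, a small oligosaccharyltransferase subunit, and SEC61B, the tail-anchored beta subunit of the channel, were listed in no HEK293T library. A gene without a listed edit has no coverage in these files, so absence of edits and absence of reads were not distinguishable there.

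**Figure D1:**
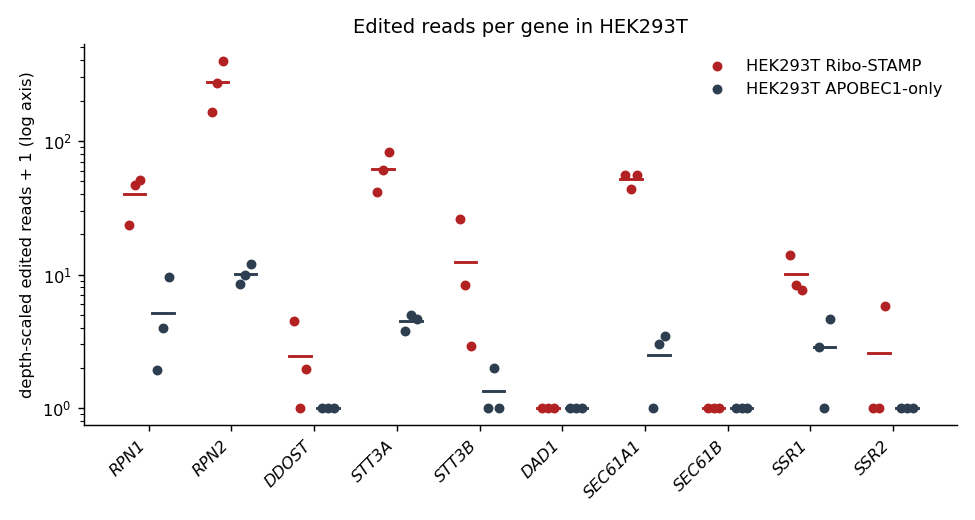
Depth-scaled edited reads plus 1 for each gene in HEK293T (log axis), with 1 point per library (3 Ribo-STAMP in red, 3 APOBEC1-only in dark blue) and a bar at the group mean. RPN2, STT3A, RPN1 and SEC61A1 separate fully, and DAD1 and SEC61B lie at the floor in all 6 libraries.

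Dividing by coverage asked whether these differences came with editing per read or only with more reads. For RPN2, 161, 235 and 491 reads covered the listed isoform in the Ribo-STAMP libraries, against 298, 292 and 365 in the APOBEC1-only libraries. For SEC61A1 they were 236, 152 and 217 with Ribo-STAMP, against 148 and 137 in APOBEC1-only replicates 2 and 3, with no listed isoform in replicate 1, so it has no value per read across all libraries. Coverage thus overlapped between the groups for RPN2, and the unscaled counts were higher with Ribo-STAMP for SEC61A1. Relative depth was 0.945 in Ribo-STAMP replicate 2 and 0.819 in APOBEC1-only replicate 3. After division by relative depth, the SEC61A1 counts of the groups overlapped too. Per 100 covering reads, RPN2 carried 117, 109 and 83.9 edited reads in Ribo-STAMP libraries, against 2.68, 3.08 and 2.47 with APOBEC1 alone. Values above 100 arise because edits are summed over all positions of a read. STT3A carried 43.5, 53.3 and 57.5 per 100 with Ribo-STAMP, against 3.41, 5.06 and 1.97 with APOBEC1 alone. RPN1 carried 44.1, 41.7 and 23.5 per 100 with Ribo-STAMP, against 0.826, 3.06 and 3.41 with APOBEC1 alone. For each of the 3 genes, every Ribo-STAMP library lay above every APOBEC1-only library, a separation whose share over all genes was not counted. SEC61A1, where listed, carried 26.7, 26.3 and 26.3 per 100 with Ribo-STAMP. In APOBEC1-only replicates 2 and 3 it carried 1.35 and 1.46, and this difference was not tested.

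For the test, edited and unedited reads were counted at every position of the isoform listed in any HEK293T library. As log2 ratios of edited to unedited reads so counted, the differences were 5.15 ± 0.33 for RPN2 (SE; limma, adjusted p = 8.52e-09), 3.82 ± 0.50 for RPN1 (limma, adjusted p = 5.39e-06) and 3.79 ± 0.44 for STT3A (limma, adjusted p = 1.70e-06). All 3 tested genes were called higher, beside 95.7% of the 392 genes tested, whose median was 3.47. Only isoforms edited in all 6 libraries enter this test, which selects isoforms that APOBEC1 alone also edits. When each library was centred on its median gene, RPN2 remained higher, by 1.78 (limma, adjusted p = 0.00257), whereas STT3A at 0.42 (limma, adjusted p = 0.501) and RPN1 at 0.44 (limma, adjusted p = 0.496) were not called.

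Set per kb of coding sequence, which allows for length but not for base composition or for positions left out of the files, RPN2 carried 54.6 ± 9.16 edited reads per 100 covering reads in the Ribo-STAMP libraries (SD, n = 3). STT3A followed at 24.3 ± 3.40 and RPN1 at 20.02 ± 6.18, and the median gene stood at 17.0 ± 0.720. In APOBEC1-only libraries RPN2 carried 1.45 ± 0.165, STT3A 1.65 ± 0.731, RPN1 1.34 ± 0.771 and the median gene 1.31 ± 0.153. The lowest RPN2 value with Ribo-STAMP, 44.3, was above the highest of STT3A, 27.2, whereas STT3A and RPN1 overlapped. RPN2 ranked at percentile 96.8 ± 1.27 of the measured genes with Ribo-STAMP, and at 56.8 ± 13.1 with APOBEC1 alone.

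**Figure D2:**
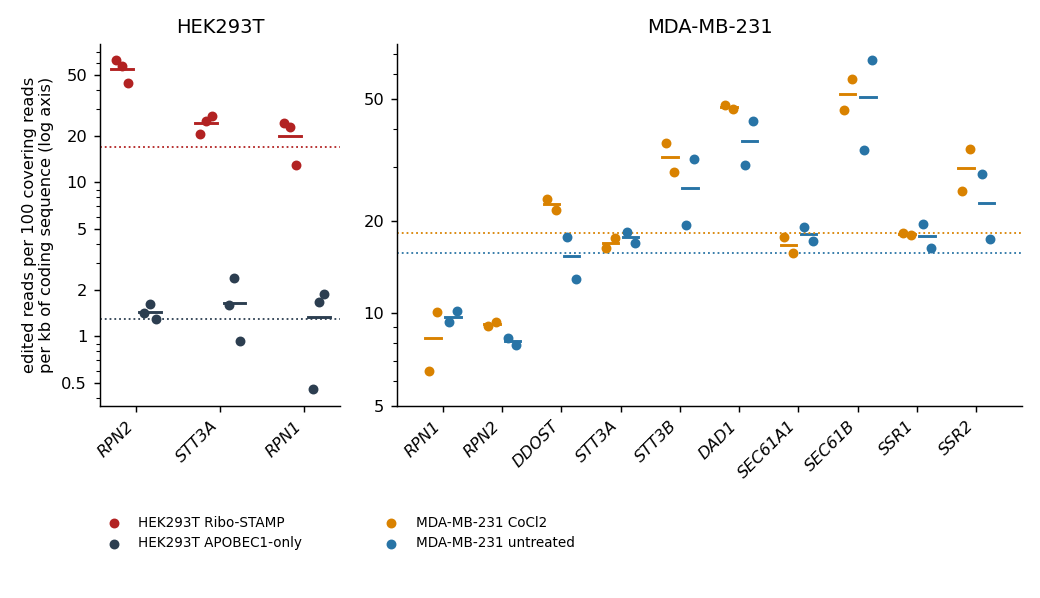
Edited reads per 100 covering reads per kb of coding sequence (log axes), for the 3 genes measurable in HEK293T (left) and all 10 in MDA-MB-231 (right). Points are libraries, bars are group means, and dotted lines are the median gene of each group, so RPN2 stands above the median gene in Ribo-STAMP HEK293T and below it in MDA-MB-231.

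Of 41 other genes of the same route into the ER membrane, 6 had enough edited reads for the test in HEK293T, which the Ribo-STAMP libraries alone can supply, so their higher values are a description. NOMO1 (5.18 ± 0.63, SE), EMC1 (4.62 ± 0.61) and CCDC47 (3.76 ± 0.46) act in membrane protein insertion. SRP68 (3.42 ± 0.66) is a signal recognition particle protein, and SEC63 (3.30 ± 0.62) and TRAM1 (3.30 ± 0.61) work beside the translocon (limma, adjusted p at most 4.45e-06). The last pair were also higher per covering read, by 3.54 and 2.98. Their changes in edited reads spanned 3.30 to 5.18, beside 3.18 to 4.69 for the 4 subunits above.

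In MDA-MB-231 the coverage of these genes split with CoCl2. DAD1, SSR2, SEC61B and DDOST rose, STT3B, SEC61A1, STT3A and RPN1 fell, and RPN2 and SSR1 did not pass the test. That is 4 of 10 genes higher and 4 of 10 lower, beside 24.5% higher and 19% lower among the 5673 genes tested. Coverage counts reads on isoforms edited in every library, scaled by TMM, and stands in for the amount of mRNA. The median change of the 10 genes was -0.07 on the log2 scale, against -0.04 for all genes. Within the oligosaccharyltransferase, 2 of the 6 subunits rose and 3 fell, and both catalytic subunits were among those that fell.

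Among oligosaccharyltransferase genes, DAD1 had 338 and 312 scaled covering reads with CoCl2, against 137 and 191 untreated, a log2 change of 1.00 ± 0.22 (SE; limma, adjusted p = 0.00303). DDOST had 463 and 477 with CoCl2, against 272 and 319.8 untreated, a change of 0.67 ± 0.20 (limma, adjusted p = 0.0134). Both genes were higher in each CoCl2 library than in either untreated one. With 2 libraries per group such separation is weak evidence, here and below, and its share over all genes was not counted. STT3A had 349.6 and 405 scaled covering reads with CoCl2, against 946 and 529 untreated, a change of -0.91 ± 0.23 (limma, adjusted p = 0.00595). STT3B had 18.5 and 38.2 with CoCl2, against 74.6 and 70.7 untreated, a change of -1.41 ± 0.34 (limma, adjusted p = 0.00404). Neither catalytic subunit overlapped between the groups, but the untreated STT3A values lay far apart. RPN1 had 585 and 729 with CoCl2, against 1004 and 909 untreated, a change of -0.55 ± 0.19 (limma, adjusted p = 0.0284). RPN2 had 1100.3 and 1099 with CoCl2, against 849.98 and 1082 untreated, a change of 0.20 with a 95% interval of -0.20 to 0.59 (limma, adjusted p = 0.397). The 2 ribophorins thus gave changes of opposite sign, of which only that of RPN1 was called.

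The channel subunits also moved in opposite directions. SEC61A1 had 297 and 273 scaled covering reads with CoCl2, against 875 and 415 untreated, a change of -1.08 ± 0.26 (SE; limma, adjusted p = 0.00418). SEC61B had 132 and 111 with CoCl2, against 57.6 and 83.0 untreated, a change of 0.80 ± 0.26 (limma, adjusted p = 0.0206). In neither gene did the groups overlap, and the SEC61A1 values of the untreated libraries differed from each other by more than those of the CoCl2 libraries did. Of the TRAP subunits, SSR2 had 480.2 and 445 with CoCl2, against 206 and 275 untreated, a change of 0.95 ± 0.21 (limma, adjusted p = 0.00297). SSR1 had 328 and 347 with CoCl2, against 491 and 371 untreated, a change of -0.34 with a 95% interval of -0.77 to 0.10 (limma, adjusted p = 0.185). These calls need both CoCl2 libraries: with CoCl2 replicate 1 or replicate 2 left out, 0 of the 10 genes and 2 or 1 of all genes passed, and without untreated replicate 2 all 10 genes and 3803 of all genes passed. Scaling by total reads instead of TMM shifted the median gene to -0.23, turned the split of all genes from 1388 higher and 1076 lower into 940 higher and 1652 lower, and left SEC61B (0.60) and DDOST (0.47) uncalled, with SSR1 called lower (-0.54; limma, adjusted p = 0.0428).

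**Figure D3:**
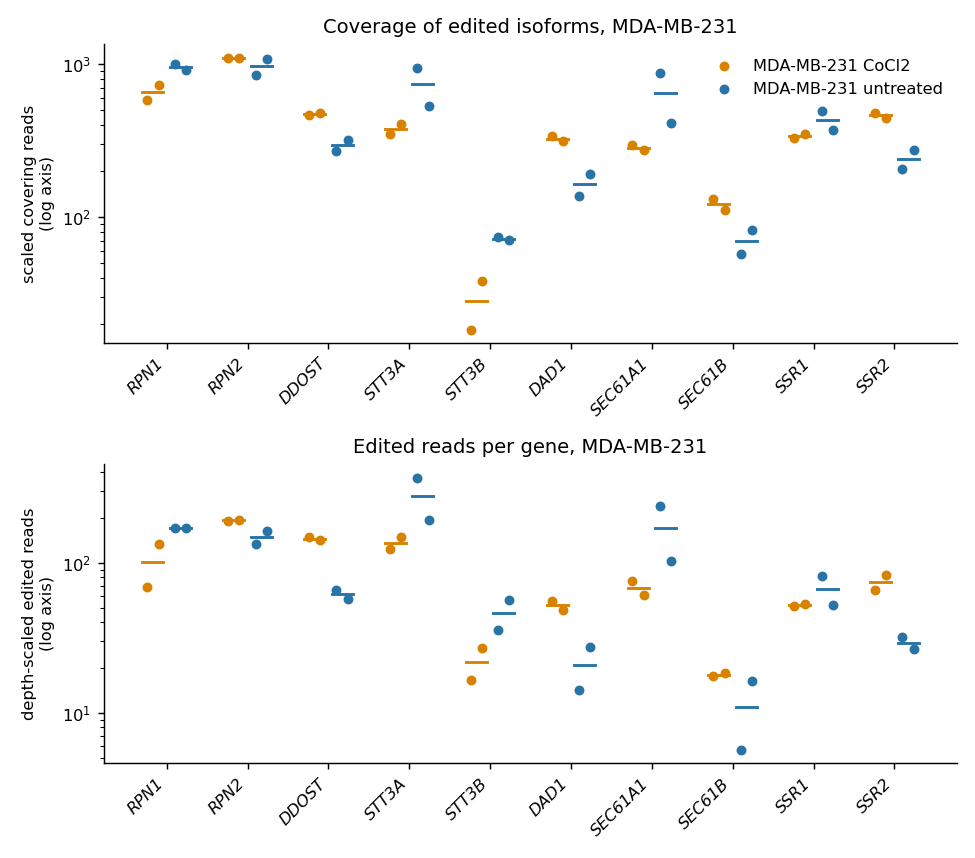
TMM-scaled covering reads (top) and depth-scaled edited reads (bottom) of each gene in MDA-MB-231, on log axes, with CoCl2 libraries in orange and untreated libraries in blue, 1 point per library and bars at group means. DAD1, DDOST and SSR2 are higher with CoCl2 in both panels, and STT3A, STT3B and SEC61A1 are lower in both.

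The direction of these changes went with transcript length. The 3 shortest transcripts, SEC61B (545 bases), DAD1 (731) and SSR2 (1116), were all among the genes that rose, and STT3B (4248), STT3A (4557) and SEC61A1 (3635) among those that fell. Over 5660 genes the log2 change with CoCl2 fell by 0.52 per doubling of transcript length. With genes in 4 equal-sized groups from short to long transcripts, its median was 0.83, 0.18, -0.50 and -0.59. The libraries themselves differed in this respect: log2 coverage changed with log2 length by -0.72 in each of the CoCl2 libraries, and by -0.05 and -0.34 in untreated replicates 1 and 2. RPN1 (2314 bases) and DDOST (2126 bases) are of similar length and differed in sign.

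With the linear trend on length taken out of each library, 3 of the 10 genes were called, against 8 as measured. DDOST stayed higher at 0.54 (limma, adjusted p = 0.0428) and RPN1 stayed lower at -0.61 (limma, adjusted p = 0.0365). SSR1, whose transcript of 9669 bases is by far the longest, turned from a lower to a higher value of 0.68 (limma, adjusted p = 0.0222). SEC61B turned from 0.80 to -0.36 and was not called (limma, adjusted p = 0.301). The other calls were lost: STT3B stood at -1.02, SEC61A1 at -0.80 and STT3A at -0.46 (limma, adjusted p = 0.0615, 0.0656 and 0.131), and SSR2 at 0.34 and DAD1 at 0.07 (limma, adjusted p = 0.152 and 0.805). The part that length plays in the CoCl2 difference was not tested beyond this correction.

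**Figure D4:**
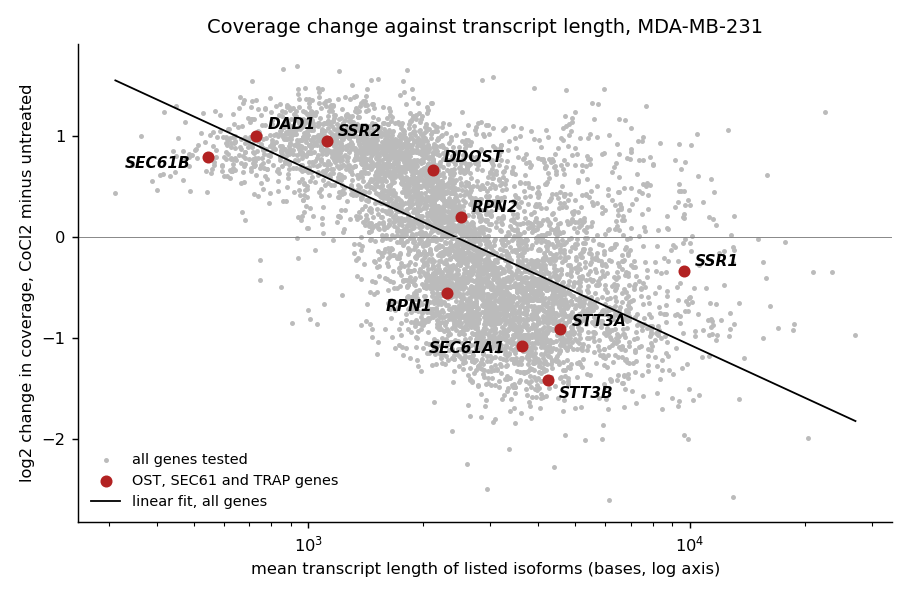
Log2 change in coverage (CoCl2 minus untreated, MDA-MB-231) against mean transcript length in bases (log axis) for all tested genes in grey and the 10 genes in red. The line is the linear fit over all genes, with a slope of -0.52 per doubling of length, and DDOST and RPN1 lie on opposite sides of it at similar length.

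Of the 41 related genes, 37 were tested for coverage, and 12 were higher and 4 lower with CoCl2, beside the 24.5% higher and 19% lower of all genes. With the length trend taken out, 3 were higher and 3 lower, against 9.77% higher and 7.76% lower of all genes. The called ones with the lowest adjusted p were EMC3 (1.13 ± 0.23, SE), EMC4 (1.13 ± 0.23), EMC7 (1.03 ± 0.23) and TMEM147 (1.00 ± 0.24), which act in membrane insertion, SEC61G (1.06 ± 0.26), the gamma subunit of the channel, and SRP68 (-0.83 ± 0.20), all with limma adjusted p at most 0.00485. Among the other oligosaccharyltransferase subunits, 3 of 5 tested were higher and none lower. All 3 are small membrane proteins: TMEM258 (0.99 ± 0.26; limma, adjusted p = 0.00638), KRTCAP2 (1.01 ± 0.29; limma, adjusted p = 0.00993) and OST4 (0.78 ± 0.27; limma, adjusted p = 0.0241). With the length trend taken out these 3 changed sign and were not called (TMEM258 -0.12, KRTCAP2 -0.14 and OST4 -0.35; limma, adjusted p at least 0.273), as did SEC61G (-0.05). EMC4 (0.44), EMC7 (0.44) and TMEM147 (0.22) also lost their calls (limma, adjusted p = 0.129, 0.110 and 0.405). EMC3 (1.20; limma, adjusted p = 0.0117) and SRP68 (-0.79; limma, adjusted p = 0.0218) kept theirs. Neither of the 2 other TRAP subunits, SSR3 and SSR4, was called, and of the 8 genes of the signal recognition particle and its receptor, 2 were higher and 2 lower.

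Edited reads in MDA-MB-231 gave changes of the same sign as coverage in each of the 10 genes, and 3 passed the test. DDOST had 145 and 130 edited reads with CoCl2, against 70 and 60 untreated, a log2 change after depth scaling of 1.22 ± 0.29 (SE; limma, adjusted p = 0.0308). SSR2 had 64 and 77, against 34 and 28, a change of 1.31 ± 0.33 (limma, adjusted p = 0.0336). DAD1 had 54 and 45, against 15 and 29, a change of 1.35 ± 0.40 (limma, adjusted p = 0.0439). These 3 of 10 stand beside 12.1% of 4097 genes called higher and 2.9% called lower, and no subunit was called lower. The median change was 0.02 over the 10 genes and 0.19 over all genes.

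The subunits with less coverage after CoCl2 also had fewer edited reads, but short of the threshold. STT3A had 120 and 138 edited reads with CoCl2, against 390 and 201 untreated (-0.96 ± 0.33; limma, adjusted p = 0.0595). SEC61A1 had 73 and 56, against 252 and 108 (-1.20 ± 0.38; limma, adjusted p = 0.0515). STT3B had 16 and 25, against 38 and 59 (-1.05 ± 0.40; limma, adjusted p = 0.0831). The groups did not overlap in any of these, but with 2 libraries per group such separation is weak evidence. The untreated libraries also differed widely from each other in STT3A and SEC61A1. RPN1 had 67 and 123 edited reads with CoCl2, against 181 and 178 untreated (-0.82; limma, adjusted p = 0.0990). The 95% intervals of the changes of RPN2 (0.37, -0.21 to 0.95), SEC61B (0.82, -0.35 to 2.00) and SSR1 (-0.32, -1.06 to 0.41) include 0. With either CoCl2 library left out none of the 10 was called. Without untreated replicate 1 the change was 0.89 for DAD1, which lost its call, -1.37 for STT3B and -0.82 for RPN1. Without untreated replicate 2 it was -1.80 for SEC61A1, -1.43 for STT3A, 1.51 for SEC61B and -0.83 for RPN1. Each of these fits leaves a lone untreated library. With the length trend taken out, DDOST stayed called at 1.10 (limma, adjusted p = 0.0248), and SSR2 at 0.60 (limma, adjusted p = 0.259) and DAD1 at 0.25 (limma, adjusted p = 0.662) were not. Under TMM, which moved the median gene to 0.06, the split of all genes was 332 higher and 214 lower in place of 495 and 119, SEC61A1 (-1.33) and STT3A (-1.09) were called lower, and DAD1 (1.22) was not called. Scaling by total reads also called SEC61A1 (-1.39) and STT3A (-1.15) lower, and left DAD1 (1.17) and SSR2 (1.13) uncalled. SEC61A1 was called lower with pseudocount 5 (-1.16) and with limma-voom (-1.21) too.

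Of 33 related genes with enough edited reads, 4 were higher with CoCl2 and 1 lower, shares close to the 12.1% and 2.9% of all genes. EMC4 (2.13 ± 0.44, SE), EMC3 (1.84 ± 0.48), EMC7 (1.20 ± 0.37) and KRTCAP2 (1.74 ± 0.53) were higher, and SRP68 (-0.96 ± 0.29) was lower (limma, adjusted p between 0.0298 and 0.0490). All 5 were called in the same direction for coverage. With the length trend taken out, only EMC3 of these 5 stayed called for edited reads (1.96; limma, adjusted p = 0.0127).

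Per covering read, no gene in MDA-MB-231 changed with CoCl2 beyond the threshold: limma called 0 of 5673 genes, with 421 higher and 64 lower at an unadjusted p under 0.05, and limma with weights by coverage also called 0. The percentages called were 0 in both directions. Among the 10 genes, DDOST had the largest difference, with 32.2 and 29.7 edited reads per 100 covering reads with CoCl2, against 24.3 and 17.7 untreated. Its log2 difference was 0.57 with a 95% interval of 0.00 to 1.14 (limma, adjusted p = 0.576). STT3A had 34.4 and 37.2 per 100 with CoCl2, against 38.9 and 35.8 untreated, a difference of -0.06 (-0.54 to 0.42). SEC61A1 had 25.3 and 22.4, against 27.2 and 24.5, a difference of -0.11 (-0.61 to 0.38). For both genes the groups overlapped, so their lower coverage stood beside overlapping values per read. The widest intervals were those of STT3B (-0.63 to 1.43) and SEC61B (-0.91 to 1.06), which had the fewest reads.

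Per kb of coding sequence, the order of the genes in untreated MDA-MB-231 ran from SEC61B at 50.6 ± 23.3 edited reads per 100 covering reads (SD, n = 2) through DAD1 (36.4 ± 8.37), STT3B (25.6 ± 8.72), SSR2 (22.9 ± 7.74), SEC61A1 (18.1 ± 1.32), SSR1 (17.9 ± 2.25), STT3A (17.7 ± 1.03), DDOST (15.4 ± 3.41) and RPN1 (9.75 ± 0.558) to RPN2 (8.11 ± 0.325). The median gene stood at 15.7 ± 0.317. Neighbours from SEC61B to DDOST overlapped in their library values, whereas both ribophorins lay below all the others: the highest RPN1 value was 10.1 and the lowest DDOST value 12.9. RPN1 and RPN2 did not overlap in the untreated libraries. This low place came with the division by length. Per 100 covering reads alone, the untreated means of RPN1 (17.7) and RPN2 (15.3) were above those of SEC61B (14.6), SSR2 (12.6) and DAD1 (12.4). SSR1 (15.4) lay between the ribophorins, DDOST, SEC61A1, STT3A and STT3B lay above both, and the median gene stood at 17.9. With CoCl2 the upper places were held by SEC61B (52.0 ± 8.31), DAD1 (47.0 ± 0.834), STT3B (32.3 ± 4.98) and SSR2 (29.7 ± 6.66), and DDOST (22.7 ± 1.28) came next. The lowest places were again those of RPN2 (9.21 ± 0.179) and RPN1 (8.29 ± 2.58), with the median gene at 18.2 ± 0.519. RPN2, above nearly all measured genes in Ribo-STAMP HEK293T, thus stood at percentile 18.0 ± 2.42 with CoCl2 and 17.2 ± 1.51 untreated in MDA-MB-231. This contrast crosses cell line, kit and induction time and was not tested. The percentiles also rest on unlike gene sets, 387 genes in HEK293T and 5660 in MDA-MB-231.

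Which positions the files list bears on these levels. Of the 3290 C bases in the coding sequences of the 10 genes, 1336 (40.6%) were listed as edited in at least 1 MDA-MB-231 library: 651 in 1 library, 375 in 2, 310 in 3 and none in all 4. In HEK293T no position of these genes was listed in more than 4 of the 6 libraries, but each APOBEC1-only library listed only 13 to 24 of them. Positions listed in every Ribo-STAMP HEK293T library did occur: the most edited RPN2 position had 6, 7 and 8 edited reads there. Weighted by edited reads, 80.9 ± 1.51% of edits in the CoCl2 libraries and 80.8 ± 0.214% in the untreated libraries followed an A or a U (SD, n = 2 each), against 83.0 ± 0.196% and 83.7 ± 0.736% over all genes. An A or U before the C is the known preference of APOBEC1. Over the 10 genes, 545 of 914 C after U (59.6%) were listed and 319 of 697 after A (45.8%), against 278 of 799 after G (34.8%) and 194 of 880 after C (22.0%).

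RPN2 departed from this order. It listed 13 of its 113 C after A (11.5%), against 84 of 125 after G (67.2%), 71 of 147 after U (48.3%) and 62 of 144 after C (43.1%). RPN2 was also the most deeply covered of the 10, with a mean of 1031 reads over the MDA-MB-231 libraries. STT3B, at 51.8 reads the least covered, showed the opposite, with 52 of 131 C after A (39.7%) and 2 of 109 after C (1.83%). SSR1, at 387.5 reads, listed 31 of 43 C after A (72.1%) and 9 of 46 after C (19.6%). RPN1, at 816 reads, listed 53 of 105 C after A (50.5%), 57 of 125 after G (45.6%) and 38 of 138 after C (27.5%).

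Between these extremes the 10 genes showed no steady order with coverage. Over all MDA-MB-231 genes, a related quantity fell with coverage. With genes in 4 equal-sized groups from the least to the most covered, the share of listed positions with an A before the C was 62.5, 58.4, 51.9 and 31.9%. The median level per kb in the same groups was 18.9, 19.5, 20.2 and 13.4 edited reads per 100 covering reads, and 8 of the 10 genes, both ribophorins included, were in the most covered group. In Ribo-STAMP HEK293T the median level per kb did not drop in the most covered group: it was 15.6, 16.6, 18.0 and 20.2. Which processing step left out positions seen in every MDA-MB-231 library is not stated in any source used here. Its part in the low ribophorin levels per kb was not tested.

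**Figure D5:**
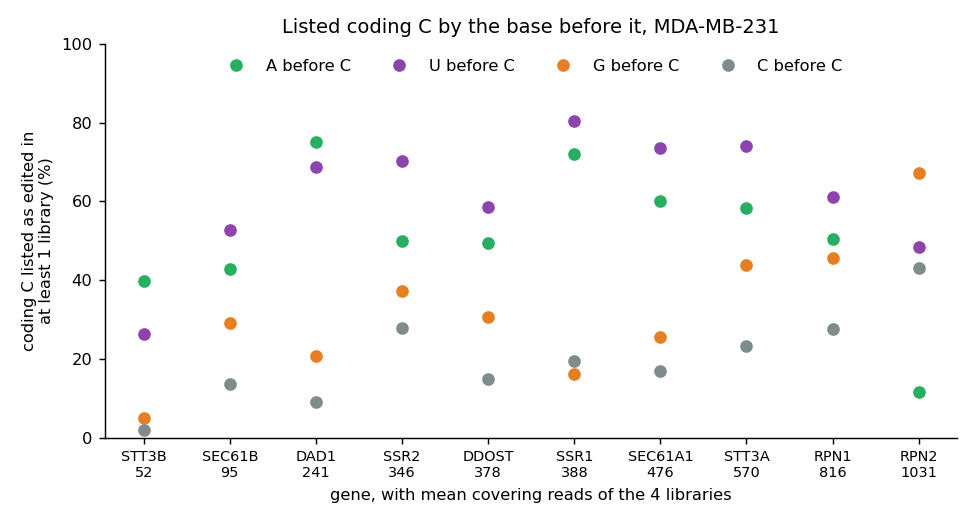
Share of the coding C bases of each gene listed as edited in at least 1 MDA-MB-231 library, split by the base before the C, with genes ordered by mean covering reads from STT3B to RPN2. C after A (green) is listed most or next to most often in every gene except RPN2, where it is the least listed at 11.5%.

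An edit can turn CAA, CAG or CGA into a stop codon. Such changes were possible at 172 of the coding C bases of the 10 genes, and 61 of them were listed. RPN2 held 13 of these, STT3A 11, and RPN1 and SSR1 9 each. They made up 3.38 ± 0.0569% of the edits of these genes with CoCl2 and 3.18 ± 0.746% untreated (SD, n = 2 each), against 5.54 ± 0.0726% and 5.51 ± 0.0829% over all genes. Listed positions lay along the whole coding sequence: 38.2% of C bases were listed in the first part of the coding sequences, 43.6% in the middle part and 39.98% in the last part, taken as equal parts. A single isoform carried at least 99.3% of the edited reads of each gene in MDA-MB-231. Isoforms without a listed edit have no coverage in these files, so switches to or from them could not be seen.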

How the data were processed

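Coding-sequence C-to-U edits were analysed in 10 long-read libraries. The values are the authors' deposited pairs of whole-number read counts, edited and covering reads, for each position in each isoform, in files without headers, and that reading comes from the values. No other score or normalized value was used. Which aligner, edit caller, filters and strand handling were used is not given in the sources used here. Per the submitters' processing notes, builds hg19 and hg38 were used. MDA-MB-231 positions lay inside GRCh38 coding exons of the gene they are listed under (GENCODE 29), and nearly all HEK293T positions did not, so HEK293T coordinates and sequence are not reported.

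Edited reads were summed per gene and divided by relative depth, the median ratio of isoform coverage. Coverage is the summed isoform coverage, under TMM scaling (trimmed mean of M-values, 30% and 5% trimmed). Editing per covering read was tested as the log2 ratio of edited to unedited reads over positions, with 0.5 added to each. The 2 together are isoform coverage times the number of the isoform's positions listed in any library of the line. Coverage and editing per read use isoforms found in all libraries of a cell line. Genes needed at least 10 edited reads in 3 (HEK293T) or 2 (MDA-MB-231) libraries, or at least 10 covering reads on average. Tests used limma 3.58.1 in R 4.3.3 with an intensity trend, two-sided, with Benjamini-Hochberg adjustment over all genes tested and a threshold of 0.05, and were tested on simulated data. A count model was not used, since each cell holds a pair of numbers. The 10 genes and the 41 related genes were chosen with earlier results of these data known. Of the related genes, those that passed were named, up to 6 per comparison by adjusted p, and TMEM258, KRTCAP2 and OST4 were added for coverage after their values were seen. Alternatives covered scaling, pseudocount, filters, a length correction, left-out replicates and a replicate block.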

Additional observations from a re-analysis of the deposited data

How the results depend on the processing

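The depth of the whole libraries is unknown, levels of genes with under about 100 covering reads are loose, and with 2 libraries per group the MDA-MB-231 calls for coverage and edited reads need both CoCl2 libraries. In HEK293T, edited reads of 653 genes were called, against 362 with TMM scaling and 2267 of 7004 genes without a filter on edited reads. Per covering read, 375 genes and 3 of the 10 were called, against 126 genes (73 higher, 53 lower) and 1 of the 10 when centred on the median gene. For MDA-MB-231 edited reads, 614 genes and 3 of the 10 were called, against 0 and 0 without a filter, 205 and 1 with positions covered by at least 20 reads, 0 and 0 for the number of edited positions, and 375 and 1 with the length trend taken out. With pseudocount 5 they were 853 and 4. Leaving out 1 library gave 0 to 1673 genes and 0 to 7 of the 10. For MDA-MB-231 coverage, 2464 genes and 8 of the 10 were called, against 992 and 3 with the length trend taken out, where SEC61B (-0.36) and SSR1 (0.68) changed sign. Leaving out 1 library gave 1 to 3803 genes and 0 to 10 of the 10, and a lone library was assumed to vary like the other group. Editing per covering read in MDA-MB-231 gave 0 calls under every alternative run.

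Replicate numbers did not pair the libraries throughout. In their deviations from the group means, same-numbered HEK293T libraries correlated at 0.087, 0.120 and 0.332 for edited reads. The highest correlations with another number were 0.155, 0.182 and -0.185, so only replicate 3 was closest to its own number. Per covering read, HEK293T replicates 1 (0.131) and 3 (0.224) were closest to their own number. For MDA-MB-231 edited reads the same-number correlation was 0.023. With the numbers as a replicate block, MDA-MB-231 edited reads gave 1088 genes and 6 of the 10, adding SEC61A1, STT3A and STT3B as lower. For coverage the block gave 2436 genes and 7 of the 10, without RPN1 (limma, adjusted p = 0.0572), and in HEK293T it changed no call of the 10. The share of edited reads over positions listed in any library of the line was also computed over each library's own listed positions. This share moved by more than the spread between replicates in all 58 cases. A library's own positions are only part of those listed in the line, so the smaller divisor fixes a rise in advance. The levels given above, per covering read and per kb, have no number of positions in their divisor and were not tested by this.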
